A study of Mus musculus with 16 samples.

Results

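The C-type lectins and the paired receptors of the Cd300, Lilr, Pir, Pilr, Siglec, Sirp and Trem families are surface receptors with which myeloid cells read sugars, lipids, MHC class I and dying cells. The genes were taken by symbol (Clec followed by a digit, Siglec, Cd300, Lilr, Pilr, Pira, Pirb, Trem, Treml or Sirp). They numbered 71 of 21887 protein-coding genes. The rule itself used no measured value, but the genes were chosen with earlier results of these data known. There were 33 C-type lectin genes, 12 Cd300, 7 Lilr and Pir, 6 Siglec, 6 Trem and Treml, 4 Sirp and 3 Pilr genes. Many lie in clusters of duplicated genes, so that their loci, each taken as the gene plus 10 kb up and down, overlapped: 31 of the 71 shared a block of overlapping loci with another of them, and the 71 formed 49 separate blocks. Regions shared by neighbours are counted once in the counts of regions and of blocks below. Counts and shares of genes count such a region at each gene.

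The study mapped 2 transcription factors, Bcl11a and Spi1, in MPP3 cells, a myeloid-biased multipotent progenitor sorted from mouse bone marrow. It used CUT&Tag, in which an antibody guides a transposase to cut and tag the DNA around the bound factor. The design states the aim of learning how Bcl11a works in these cells. Bcl11a was profiled in WT-iMOS animals (3 T1 and 3 T2 libraries), and Spi1 in WT-iMOS (3 T1 and 3 T2) and KO-iMOS animals (2 T1 and 2 T2), 16 libraries in 6 groups. All titles carry 3m; the labels explain neither 3m, iMOS, T1 nor T2, do not name the deleted gene, and do not say whether replicates came from separate animals, so that p-values measure the spread between these samples only, which may be technical.

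Each library was given as 1 list of peaks on mm10, with 2719 to 7382 peaks for Bcl11a, 5068 to 12261 for Spi1 in WT-iMOS and 6372 to 20241 for Spi1 in KO-iMOS. The lists hold no read counts, so the depth is unknown, and whether a peak was called at a locus is the value compared. The names of the peaks inside the lists carry prefixes that the labels do not explain. They are PWG and PMG in the Spi1 WT-iMOS T1 and T2 lists, but PWT in KO-iMOS T1 and PKO in KO-iMOS T2. If these prefixes name other groups, the values by genotype or T below change their meaning. Groups follow the labels here. Marker loci were looked at as a description, since a peak is not expression. Spi1 peaks in at least 2 WT-iMOS libraries were found at 4 of 6 stem and progenitor loci (length-matched genes would give 2.19), 4 of 6 granulocyte and monocyte loci (1.85), 2 of 5 B cell loci (1.93), 1 of 3 T cell loci (0.907), 1 of 4 erythroid loci (0.919) and 2 of 3 megakaryocyte loci (0.686), and at 0 of 5 loci of genes from outside the blood (1.55). Of the progenitor markers, Flt3 carried Spi1 in 6 of 6 WT-iMOS and 4 of 4 KO-iMOS lists, Kit in 2 and 0, Ly6a in 2 and 3, Cd48 in 3 and 2, and Cd34 and Slamf1 in 1 and 4 each.

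Most of these families hold receptors of opposite sign. Inhibitory members carry ITIM motifs in their tails, which recruit phosphatases such as SHP-1 and SHIP1. Activating members signal through adaptors with ITAM motifs, chiefly DAP12 (Tyrobp) and the Fc receptor gamma chain (Fcer1g), which recruit the kinase Syk. Spi1, also called PU.1, is an ETS factor that binds purine-rich sites around GGAA and drives myeloid and B cell genes; Bcl11a is a zinc finger repressor for which the letters TGACCA are the best known site.

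Spi1 was called at more of these receptor genes than at genes of the same length, and Bcl11a at fewer. The sequences around the start sites with the most called peaks are printed here. The windows, from RefSeq on GRCm38.p6 (the assembly of mm10), run 5′ to 3′ from 250 bases before the listed start to 30 bases after it. Capitals mark GAGGAA, the core of a PU.1 site, or its longer form GAGGAAGT, on either strand (TTCCTC is GAGGAA on the other strand). Lilra6 (chr7:3915472-3915751, minus strand), Pirb (chr7:3720353-3720632, minus) and Pira1 (chr7:3739888-3740167, minus) are paired Ig-like receptors of the same cluster on chromosome 7. Cd300lf (chr11:115133963-115134242, minus) is an inhibitory receptor for phospholipids, and Clec12a (chr6:129349994-129350273, plus) an inhibitory lectin. Clec4a3 (chr6:122952265-122952544, plus) and Clec4a1 (chr6:122921598-122921877, plus) are lectins of the Dcir group. Spi1 was called over the starts of both, and their windows, like that of Clec12a, do not hold the longer motif.
Lilra6: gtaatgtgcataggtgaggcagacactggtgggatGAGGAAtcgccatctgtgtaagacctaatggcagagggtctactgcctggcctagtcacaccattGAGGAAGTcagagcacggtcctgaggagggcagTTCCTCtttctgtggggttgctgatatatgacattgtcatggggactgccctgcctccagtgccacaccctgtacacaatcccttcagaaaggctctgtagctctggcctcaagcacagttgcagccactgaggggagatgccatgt
Pirb: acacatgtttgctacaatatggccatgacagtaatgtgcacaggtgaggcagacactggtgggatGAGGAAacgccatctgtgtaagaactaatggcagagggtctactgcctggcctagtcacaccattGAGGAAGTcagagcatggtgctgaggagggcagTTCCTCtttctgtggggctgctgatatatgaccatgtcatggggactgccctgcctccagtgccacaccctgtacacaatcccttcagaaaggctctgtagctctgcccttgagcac
Pira1: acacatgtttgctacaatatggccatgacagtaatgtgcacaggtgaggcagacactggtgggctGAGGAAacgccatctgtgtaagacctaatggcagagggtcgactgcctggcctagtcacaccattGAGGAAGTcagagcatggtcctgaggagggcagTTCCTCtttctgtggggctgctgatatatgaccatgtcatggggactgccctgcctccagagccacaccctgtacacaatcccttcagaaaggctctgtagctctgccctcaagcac
Cd300lf: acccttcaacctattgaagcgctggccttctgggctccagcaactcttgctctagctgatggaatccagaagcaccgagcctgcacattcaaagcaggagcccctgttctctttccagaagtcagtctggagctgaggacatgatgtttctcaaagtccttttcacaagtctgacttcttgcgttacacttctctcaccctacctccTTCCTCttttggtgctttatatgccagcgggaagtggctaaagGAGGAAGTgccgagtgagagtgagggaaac
Clec12a: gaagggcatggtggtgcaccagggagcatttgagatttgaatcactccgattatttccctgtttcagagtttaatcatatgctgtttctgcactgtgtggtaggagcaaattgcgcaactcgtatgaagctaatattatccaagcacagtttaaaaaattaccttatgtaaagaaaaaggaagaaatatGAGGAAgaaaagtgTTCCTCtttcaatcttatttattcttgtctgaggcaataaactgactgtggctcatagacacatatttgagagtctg
Clec4a3: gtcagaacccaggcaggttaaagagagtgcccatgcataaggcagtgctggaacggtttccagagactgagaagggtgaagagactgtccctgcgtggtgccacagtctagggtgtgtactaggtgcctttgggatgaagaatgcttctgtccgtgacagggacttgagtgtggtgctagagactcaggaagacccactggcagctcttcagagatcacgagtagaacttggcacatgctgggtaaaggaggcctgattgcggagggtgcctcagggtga
Clec4a1: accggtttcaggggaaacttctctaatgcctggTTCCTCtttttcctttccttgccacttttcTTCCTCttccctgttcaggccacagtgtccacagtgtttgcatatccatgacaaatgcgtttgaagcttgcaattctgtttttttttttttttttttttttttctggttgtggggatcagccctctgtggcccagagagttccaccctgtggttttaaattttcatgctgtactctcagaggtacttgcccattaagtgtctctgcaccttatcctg

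A promoter window was listed for 56 of the 71 genes, 60 windows in all. GAGGAAGT, searched on both strands over the full windows with 50 bases after the start, was found in 9 of the 60 (15.0%), against 666 of 21263 windows of all protein-coding genes (3.13%). These 9 belong to Lilra6, Pirb, Pira1 and Pira2 and to Cd300ld, Cd300ld3, Cd300ld4, Cd300ld5 and Cd300lf. The count is therefore that of 2 duplicated gene families. The shorter GAGGAA, added after the sequences had been seen and contained in the longer motif, was found in 60.0% of the receptor windows and 27.4% of all windows. The bare core GGAA, contained in both, was in 100% and 95.7%. Of other motifs, TGACCA was in 21.7% of the receptor windows and 12.5% of all, TTGCNNAA (C/EBP factors) in 21.7% and 10.2%, and TGTGGT (Runx factors) in 26.7% and 15.0%. TGACCA lies in the windows of Pirb, Pira1 and Pira2, where Bcl11a was called in 0 of 6 libraries, and not in that of Lilra6, where it was called in 2. A match is a description of the letters and not a site.

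Of the 9 receptor windows with GAGGAAGT, 5 had Spi1 in at least 2 WT-iMOS lists, and 5 in at least 2 KO-iMOS lists. Of the 51 receptor windows without it, 7 and 10 did. Over all windows, 27.8% of those with the motif and 9.87% of those without it had Spi1 in WT-iMOS. In KO-iMOS the shares were 38.3% and 23.9%. The windows of Cd300ld, Cd300ld3, Cd300ld4 and Cd300ld5 hold the motif without such a call. At Lilra6 the summits of all 10 Spi1 lists lay at −178 to −129 bp from the start, and their median was 13.5 bp downstream of the centre of GAGGAAGT. At Pira1 and at Pira2 the median was 17.5 bp downstream of that centre. At Pirb it was 85.5 bp downstream, and at Cd300lf, where the motif begins at the listed start, the median was −66.0 bp, on the upstream side. Within 100 bp of the motif's centre lay 10 of 10 Spi1 summits at Lilra6, Pirb and Pira1, 9 of 9 at Pira2 and 8 of 10 at Cd300lf. At Clec12a the summits lay outside the window shown, with a median at −341 bp from the start. At Clec4a1 3 of 8 Spi1 summits lay inside the window, and the median was −258 bp, outside it. The windows of Pira1 and Pira2 are identical over 272 aligned columns, Pirb and Pira1 share 97.3% of 300 columns, and Pirb and Lilra6 95.9% of 270. Reads from such copies can be split or misplaced, and the sources used here do not give how the authors treated reads with several positions, so the calls at the 4 Pir and Lilra6 starts are not independent and each gene's own call is uncertain.

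**Figure D1:**
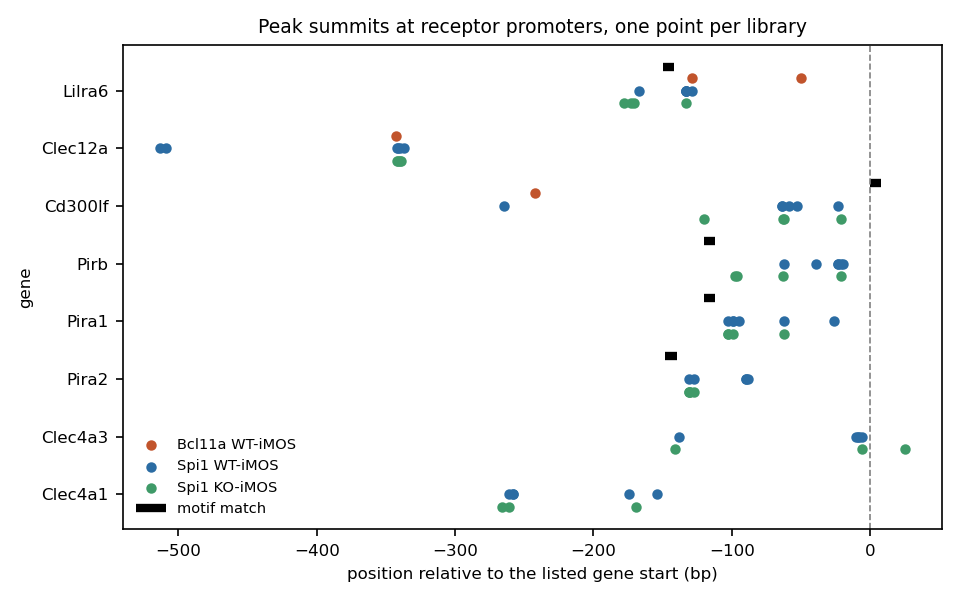
Peak summits at 8 receptor promoters. The horizontal axis is the position relative to the listed gene start in bp, negative upstream; each point is the summit of 1 library, colours give target and genotype, and black bars mark the match to the longer PU.1 motif. Spi1 points cluster near the bar at Lilra6, Pira1 and Pira2 (medians 13.5, 17.5 and 17.5 bp from the motif's centre), while the Spi1 points of Clec12a sit at −513 to −337 bp and those of Clec4a3 and Clec4a1 have no bar.

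Counted over loci, Spi1 was frequent at these receptors in WT-iMOS cells. A peak in at least 2 of 6 libraries was found at 37 of the 71 genes (52.1%), where genes of the same length decile would give 22.7 genes (32.0%) and all genes 33.5%. Bcl11a was found in at least 2 of 6 libraries at 12 genes (16.9%), against 17.1 from length-matched genes (24.1%) and 25.3% of all genes; the 12 become 6 without T1 replicate 3, the longest Bcl11a list. Spi1 in KO-iMOS was found in at least 2 of 4 libraries at 40 genes (56.3%), against 36.3 from length-matched genes (51.2%) and 49.8% of all genes. In blocks of overlapping loci the counts were 26 of 49 for Spi1 in WT-iMOS, 9 for Bcl11a and 29 for Spi1 in KO-iMOS. Blocks of other genes were not formed, so these counts have no share to stand beside. Every list of the group had a peak at 10 receptor genes for Spi1 in WT-iMOS (10.4% of all genes), 18 for Spi1 in KO-iMOS (22.3%) and 0 for Bcl11a (3.54%). The rule of 2 libraries is easier to meet with 6 lists than with 4 and with longer lists than with shorter ones.

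Library by library, the direction was the same throughout a target. Bcl11a was called at 7, 14 and 13 of the receptor genes in the T1 lists and at 3, 5 and 3 in the T2 lists. Spi1 in WT-iMOS was called at 41, 30 and 20 in T1 and at 38, 20 and 12 in T2, and in KO-iMOS at 46 and 40 in T1 and 36 and 18 in T2. From each list's share of receptor genes with a peak, that of length-matched genes in the same list was subtracted. The difference was −5.19 ± 3.76 percentage points for Bcl11a (SD, n = 6), 13.8 ± 8.86 for Spi1 in WT-iMOS (SD, n = 6) and 5.45 ± 5.75 for Spi1 in KO-iMOS (SD, n = 4). It was below 0 in all 6 Bcl11a lists (−12.1 to −1.31) and above 0 in all 6 Spi1 WT-iMOS lists (2.55 to 25.3) and all 4 KO-iMOS lists (0.138 to 12.7). The WT-iMOS and KO-iMOS ranges overlap. Their order depended on list length. With lists of equal length, described below, the mean excess was 8.81 points for Spi1 in WT-iMOS and 10.03 in KO-iMOS. By T, the means were −6.27 (T1) and −4.11 (T2) for Bcl11a, 18.3 and 9.37 for Spi1 in WT-iMOS, and 10.04 and 0.853 for Spi1 in KO-iMOS, and the T1 and T2 ranges overlap in WT-iMOS for both targets. In KO-iMOS the 2 T1 lists (7.41 and 12.7) lay above the 2 T2 lists (1.57 and 0.138).

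**Figure D2:**
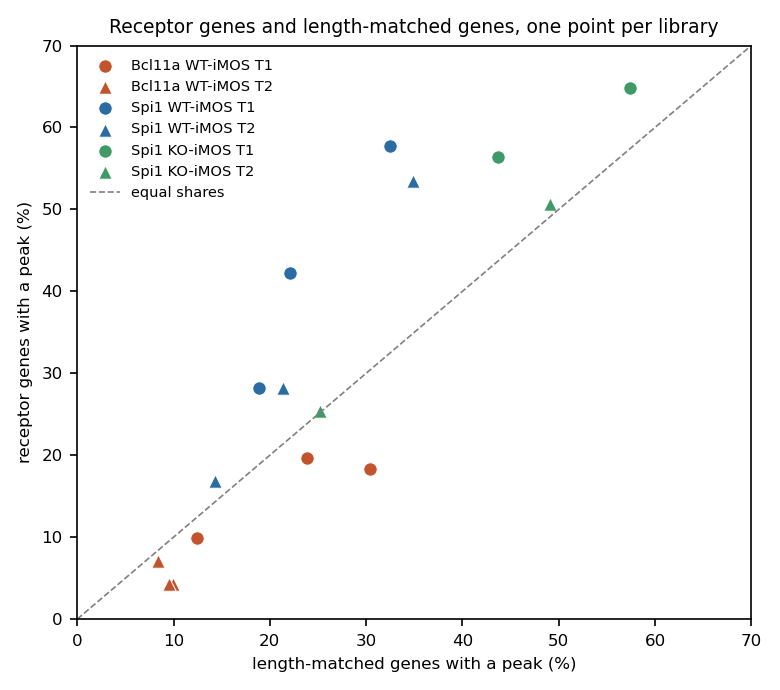
Share of the 71 receptor genes with a called peak (vertical axis, %) against the share of length-matched genes with a peak in the same list (horizontal axis, %), 1 point per library; colour gives target and genotype, shape gives T1 or T2, and the dashed line marks equal shares. All 6 Bcl11a points lie below the line and all 10 Spi1 points on or above it, with the KO-iMOS T2 points closest to it (excess of 0.138 and 1.57 points).

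List length bears on these counts. With every list shortened to its 2605 strongest peaks on assembled chromosomes, the length of the shortest, Spi1 was found in at least 2 libraries at 17 receptor genes in WT-iMOS and at 17 in KO-iMOS, while 12.9% and 12.2% of all genes were reached. Bcl11a was found at 5 genes, and at 14.5% of all genes. Under this setting Spi1 was called in 6 of 6 WT-iMOS and 4 of 4 KO-iMOS lists at Clec10a, Clec12a, Cd300lf, Pirb and Lilra6.

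By T, 10 receptor genes had Bcl11a in at least 2 of 3 T1 libraries (21.9% of all genes; 15.1 genes from length matching) and 4 in at least 2 of 3 T2 libraries (9.46%; 5.67). For Spi1 in WT-iMOS there were 29 in T1 (24.5%; 16.3) and 21 in T2 (22.6%; 15.1). For Spi1 in KO-iMOS, where the rule asks for both libraries, there were 40 in T1 (40.9%; 29.6) and 18 in T2 (24.1%; 17.2). An exact test of T2 against T1, stratified by target and genotype and adjusted by Benjamini-Hochberg over 21887 genes, called 0 receptor genes (0% of all genes, smallest adjusted p of 1). At an unadjusted p under 0.05 it gave 0 receptor genes and 203 of all genes (0.927%).

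Counted as distinct regions, Spi1 in WT-iMOS reached a larger share of receptor sites than of sites at all genes, and Spi1 in KO-iMOS a like share. Peaks of the 16 lists merged into 67 regions at receptor loci, of 15962 at all gene loci, each called in at least 2 libraries. Spi1 was called in any WT-iMOS list at 57 of the 67 (85.1%; 67.6% at all gene loci), Spi1 in any KO-iMOS list also at 57 (85.1%; 84.3%), and Bcl11a at 22 (32.8%; 46.9%). Both were called at 20, which is 90.9% of the Bcl11a regions and 35.1% of the Spi1 regions at receptors, against 76.3% and 53.0% at all gene loci. With lists of equal length the shared regions numbered 2 of 24. A region called for Spi1 in KO-iMOS alone was found 8 times (11.9%; 21.3% at all gene loci). These shares depend on how many regions the other lists gave. Per Mb of loci, regions in at least 2 lists numbered 16.6 for Spi1 in WT-iMOS (5.81 at all gene loci), 21.6 in KO-iMOS (9.19) and 3.74 for Bcl11a (3.62). Per gene, counting shared regions at each, they numbered 0.648 (0.411 at length-matched genes), 0.817 (0.712) and 0.155 (0.274). Of the 67 regions 19 (28.4%) overlapped a listed gene start, close to the 28.2% at all gene loci. Promoter windows with Spi1 in at least 2 WT-iMOS lists belonged to 10 of 56 genes (17.9%; 11.2% of all genes), with Spi1 in at least 2 KO-iMOS lists to 13 of 56 (23.2%; 26.3%), and with Bcl11a to 1 of 56 (1.79%; 9.98%).

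**Figure D3:**
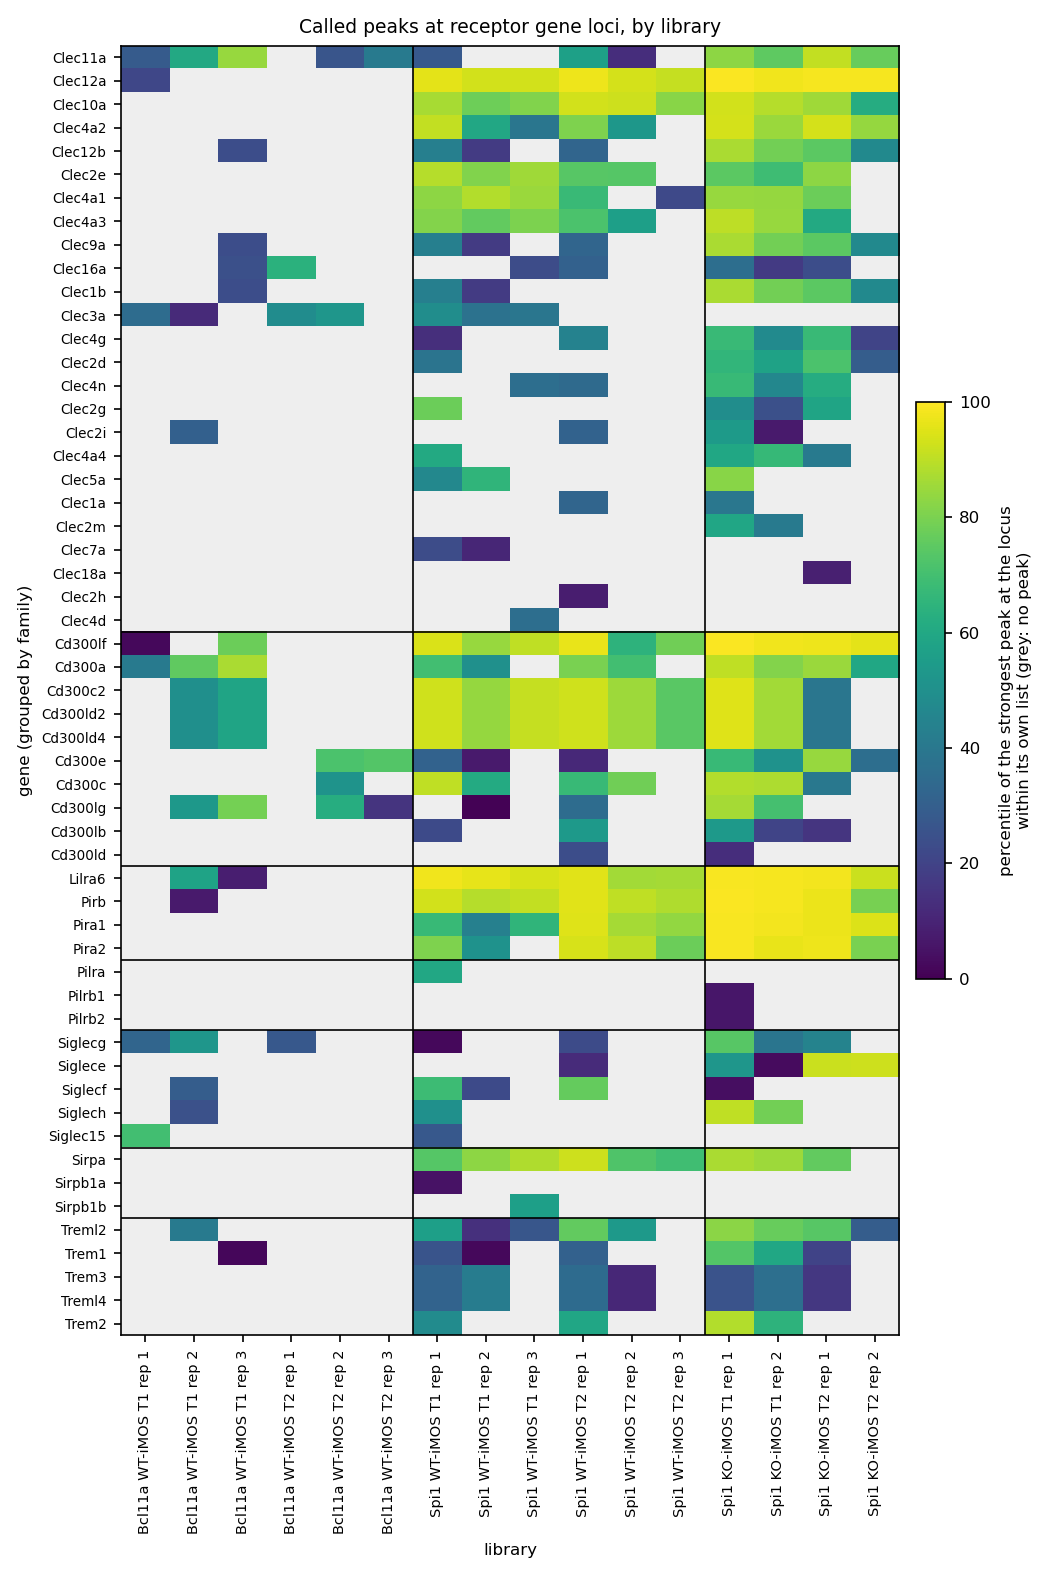
Called peaks at the 55 receptor genes with a peak in any library (rows, grouped by family) in the 16 libraries (columns); colour gives the percentile of the strongest peak at the locus within its own list, by the authors' −log10 p, and grey means no called peak. Clec12a, Cd300lf, Lilra6 and Pirb are bright in all 10 Spi1 columns and mostly grey in the 6 Bcl11a columns. Genes with the same row, such as Cd300c2, Cd300ld2 and Cd300ld4, share a region.

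The question of which receptors carry Spi1 without Bcl11a in WT-iMOS was tested per gene and per region by an exact Fisher test on the number of lists with a peak. Over 21887 genes, 0 passed the Benjamini-Hochberg adjustment of these exact tests at 0.05 (percent called 0, smallest adjusted p = 0.162). With 6 against 6 lists the exact Fisher test cannot give a p below 0.00216. A pass therefore needs a great number of genes at that value, and the 0 calls do not show that the factors are alike. Spi1 in at least 4 lists with Bcl11a in 0 was seen at 10 receptor genes, and at 3.69% of all genes. At an unadjusted p under 0.05, 10 receptor genes had Bcl11a in fewer lists than Spi1, 14.1% of the 71, where 3.65% of all genes did, and 0 had it in more (0.27% of all genes). Over single regions 13 of 46 at receptor loci had an unadjusted p under 0.05 with Bcl11a in fewer lists, against 10.1% of all regions, and 644 of 13640 passed the adjustment (4.72%). At receptor loci 4 of 46 passed (8.70%), at Clec10a, Sirpa, Pirb and Pira1, each with Spi1 in 6 of 6 and Bcl11a in 0 of 6 lists (exact Fisher p = 0.00216, adjusted p = 0.0458 over 13640 regions). The Pirb and Pira1 windows are near-identical, so these are not 4 separate results. The calls number 0 (smallest adjusted p of 0.0524) when the Bcl11a T1 lists of replicates 2 and 3 are left out together. These lists are the longest of that target. Fewer lists raise the smallest p that the test can give, so this loss does not show that the calls rest on those lists. An unadjusted p under 0.05 was then given by 16 receptor regions and 2187 of 12132 regions. With the replicate number as a block in the exact test, the calls also number 0 (smallest adjusted p of 0.196). The labels do not say whether that number pairs the samples. With lists of equal length 530 of 5744 regions passed, 6 of them at receptors. The 6 lie at Clec10a, Clec12a, Pirb, Lilra6 and the neighbours Cd300c2, Cd300ld2 and Cd300ld4, and not at Sirpa or Pira1.

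Among inhibitory receptors, 13 of the genes in a list of 14 were present, and 9 of the 13 had Spi1 in at least 2 WT-iMOS lists, 9 in at least 2 KO-iMOS lists and 3 had Bcl11a (length-matched genes would give 4.29, 6.83 and 3.23). Pirb, which binds MHC class I and restrains myeloid cells, had its region over the start at chr7:3720008-3720799. The authors' −log10 p placed the Spi1 peak there at the percentile 93.0, 85.6 and 83.1 of the 3 T1 lists in WT-iMOS, where 100 is the strongest, and at 95.6, 90.3 and 80.1 of the T2 lists. In KO-iMOS it stood at 99.4 and 98.8 (T1) and at 97.0 and 79.4 (T2), and Bcl11a was called there in 0 of 6 lists. A second region 5072 bp from Pirb, inside the ribosomal gene Rps9 (chr7:3706784-3707433), had Spi1 in 6 of 6 and 4 of 4 lists and Bcl11a in 1, and it could belong to either gene. Percentiles rank peaks within a list of its own length, and no change between lists is read from them.

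Clec12a, an inhibitory lectin that senses urate crystals and dead cells, was called in every Spi1 list. Its region over the start (chr6:129349420-129350332) stood at the percentile 96.0, 93.1 and 93.1 in the WT-iMOS T1 lists and 97.4, 93.4 and 91.4 in the T2 lists. In KO-iMOS it stood at 99.2, 97.7, 98.7 and 98.8. Bcl11a was called there in 1 of 6 lists, T1 replicate 1, at the percentile 21.3. The difference in the number of lists did not pass the adjustment (exact Fisher p = 0.0152, adjusted p = 0.141 over 13640 regions). With lists of equal length a region at Clec12a did pass.

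Sirpa, whose product binds CD47 and withholds phagocytosis, had Spi1 in 6 of 6 WT-iMOS and 3 of 4 KO-iMOS lists and Bcl11a in 0 of 6. The region lies inside the gene (chr2:129595747-129596349), at the percentile 73.7, 83.2 and 88.3 in WT-iMOS T1, 92.3, 72.4 and 69.2 in T2, and 87.3, 85.4 and 75.8 in the KO-iMOS lists with a call. KO-iMOS T2 replicate 2, at 6372 peaks the shortest KO-iMOS list, had none. The 3 Sirpb1 genes, activating relatives on another chromosome, had Spi1 in 1, 1 and 0 of 6 WT-iMOS lists and in 0 of 4 KO-iMOS lists. Clec4a2, the ITIM-bearing lectin Dcir, had Spi1 in 5 of 6 and 4 of 4 lists and Bcl11a in 0 (chr6:123122764-123123711, inside the gene and 74 bp from a listed start).

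The Cd300 family was the receptor family with a Bcl11a count above that of length-matched genes, 7 of 12 genes in at least 2 lists against 2.76. The 7 become 3 without T1 replicate 3, and 3 with lists of equal length, Cd300lg, Cd300a and Cd300e. Spi1 was found at 9 Cd300 genes in WT-iMOS (3.67) and at 9 in KO-iMOS (5.95). The 11 clustered genes span 246 kb on chromosome 11, and neighbours share regions, so the number of genes overstates the number of sites. Cd300a, an ITIM receptor for phosphatidylserine, had Bcl11a in 3 of 3 T1 lists and 0 of 3 T2 lists, and Spi1 in 4 of 6 and 4 of 4. Its Bcl11a calls were strongest 5593 bp beyond the gene (chr11:114907539-114908318), at the percentile 40.8, 75.8 and 87.3, where Spi1 was called in 2 of 6 WT-iMOS and 2 of 4 KO-iMOS lists. At its start (chr11:114889998-114890722) Spi1 was called in 4 and 4 lists and Bcl11a in 0.

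Cd300lf had Spi1 over its start in 6 of 6 and 4 of 4 lists (chr11:115133610-115134503, also within the gene body of Rab37), at the percentile 64.7 to 96.8 in WT-iMOS (median of 6 lists 87.5) and 96.1 to 99.5 in KO-iMOS. Bcl11a was called there in 1 list, T1 replicate 3. A single region where the annotated bodies of Cd300c2 and Cd300ld4 overlap (chr11:115003945-115004549) gave the counts of Cd300c2, Cd300ld4 and Cd300ld2 alike, with Spi1 in 6 of 6 and 3 of 4 lists and Bcl11a in T1 replicates 2 and 3. Cd300e, an activating receptor of monocytes, had Bcl11a in 2 T2 lists and in 0 of 3 T1 lists, and Spi1 in 3 of 6 and 4 of 4 lists. The Bcl11a calls lay at chr11:115071806-115072252, where Spi1 was called in 0 of 6 and 2 of 4 lists. At chr11:115066395-115067086 Spi1 was called in 3 of 6 and 4 of 4 lists and Bcl11a in 0. Cd300c had Spi1 in 4 of 6 and 3 of 4 lists and Bcl11a in 1. Cd300ld5 and Cd300ld3 had no peak in any list.

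Cd300lg, which encodes an endothelial adhesion protein and lies away from the cluster on the same chromosome, had Bcl11a in 4 of 6 lists, and Spi1 calls in 2 of 6 and 2 of 4 (chr11:102041427-102041808). Bcl11a stood there at the percentile 53.5 and 79.3 in T1 replicates 2 and 3, and at 62.3 and 15.0 in T2 replicates 2 and 3. Bcl11a was thus in at least 2 more WT-iMOS lists than Spi1 at Cd300lg, and by the same rule at Clec11a, 2 of 71 genes where 5.84% of all genes met it. The opposite rule, Spi1 in at least 2 more lists than Bcl11a, was met by 29 of 71 genes and by 19% of all genes.

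**Figure D4:**
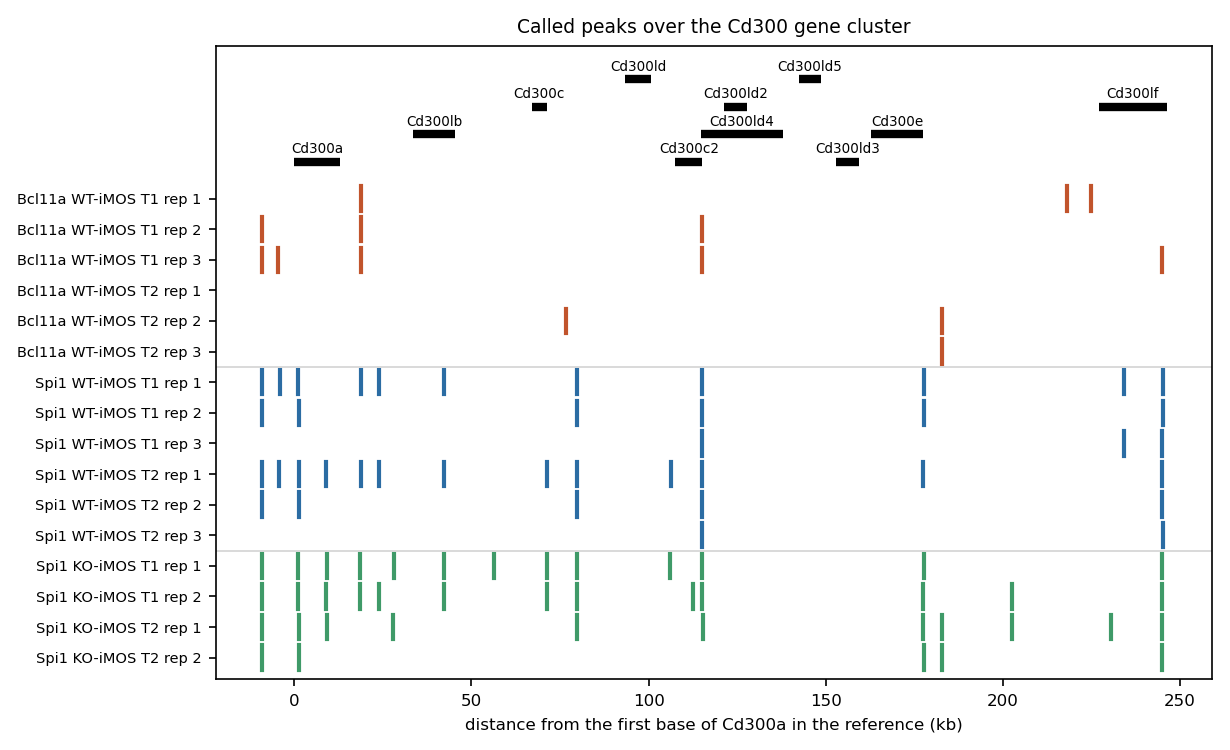
Called peaks over the Cd300 cluster. The horizontal axis is the distance in kb from the first base of Cd300a, black bars at the top are the 11 genes, and each tick is 1 peak in the list named at the left (orange Bcl11a, blue Spi1 WT-iMOS, green Spi1 KO-iMOS). Spi1 ticks align at the region shared by Cd300c2 and Cd300ld4 and at Cd300lf in all 6 WT-iMOS rows, and Bcl11a rows hold 0 to 5 peaks each.

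Activating receptors and those that signal through adaptors were represented by 24 genes of a list of 25. Spi1 was found in at least 2 lists at 13 in WT-iMOS and at 12 in KO-iMOS, and Bcl11a at 2 (length-matched genes would give 7.55, 12.2 and 5.73). Lilra6, an activating member of the Pir family, had its start region (chr7:3915233-3916057) called in 12 of 16 lists. Spi1 stood there at the percentile 88.3, 81.9 and 74.7 in the WT-iMOS T1 lists, 93.6, 85.9 and 81.7 in T2, and 98.9, 98.5, 98.3 and 91.9 in KO-iMOS. Bcl11a was called in T1 replicates 2 and 3 at 38.0 and 8.49. A further region 9712 bp away (chr7:3897803-3898565), at the start of the predicted gene Gm14548, held Spi1 in 6 of 6 and 3 of 4 lists.

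Pira1 and Pira2, the activating counterparts of Pirb, had Spi1 over their starts in 6 of 6 and 5 of 6 WT-iMOS lists and in 4 of 4 KO-iMOS lists each, with Bcl11a in 0 of 6 at both. At Pira1 (chr7:3739575-3740332) the WT-iMOS T1 lists gave the percentile 67.5, 43.4 and 65.6 and the T2 lists 95.0, 86.4 and 83.8. At Pira2 (chr7:3844731-3845494) the called T1 lists gave 80.7 and 51.1 and the T2 lists 94.1, 89.9 and 77.6. In KO-iMOS the values were 94.8 to 98.8 at Pira1 and 79.9 to 98.9 at Pira2. The activating Trem receptors signal through DAP12, and Trem1 amplifies inflammation. Trem3 and Treml4 shared 1 region at the start of Treml4 (chr17:48263671-48264385), with Spi1 in 4 of 6 and 3 of 4 lists, at percentiles of 11.1 to 42.1 and 16.1 to 36.4, and Bcl11a in 0. Treml2 had Spi1 in 5 of 6 and 4 of 4 lists and Bcl11a in 1.

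Clec1b (CLEC-2, the podoplanin receptor of platelets), Clec9a (a receptor for dead cells on dendritic cells) and the inhibitory Clec12b share a region (chr6:129407197-129407875). Spi1 was called there in 2 of 6 WT-iMOS lists at the percentile 43.2 and 17.3, and in 4 of 4 KO-iMOS lists at 87.2, 78.8, 74.8 and 47.6. The activating receptors Clec7a (dectin-1), Clec4e, Clec4d and Clec4n (fungal and mycobacterial sensors) had Spi1 in 2, 0, 1 and 2 of 6 WT-iMOS lists and in 0, 0, 0 and 3 of 4 KO-iMOS lists, with Bcl11a in 0 at each.

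Of the lectins without a listed tail motif, Clec10a, a macrophage receptor for galactose sugars, was called in every Spi1 list. The region over one end of the gene body (chr11:70166078-70166889) had Spi1 at the percentile 87.0, 77.8 and 80.9 in WT-iMOS T1, 93.2, 92.3 and 82.1 in T2, and 93.3, 88.9, 85.6 and 62.0 in KO-iMOS. Clec4a1 and Clec4a3 had Spi1 over their starts in 5 of 6 and 3 of 4 lists each (chr6:122921228-122921893 and chr6:122952142-122953003) and Bcl11a in 0. Clec2e, of the Clr ligands of natural killer receptors, had Spi1 in 5 of 6 and 3 of 4 lists at a region 2911 bp from the gene (chr6:129088314-129088905).

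Clec11a, a secreted growth factor for blood and bone progenitors and not a surface receptor, went the other way. Its region inside the gene (chr7:44304608-44305791) had Bcl11a in 5 of 6 lists, at the percentile 28.6, 60.2 and 84.4 in T1 and 26.3 and 41.0 in T2. Spi1 was called in 3 of 6 WT-iMOS lists at 27.8, 56.9 and 13.1, and in 4 of 4 KO-iMOS lists at 83.0, 75.4, 90.7 and 76.8. Clec3a, a cartilage lectin, had Bcl11a in 4 of 6 lists (2 T1 and 2 T2) and Spi1 in 3 of 3 T1 WT-iMOS lists, 0 of 3 T2 lists and 0 of 4 KO-iMOS lists (chr8:114424113-114424530, inside the gene). Neither gene passed a test (exact Fisher p = 0.545 and 1 for Bcl11a against Spi1, unadjusted).

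The comparison of Spi1 in KO-iMOS with WT-iMOS asks whether the genotype moves Spi1 at these receptors. Under exact Fisher tests adjusted by Benjamini-Hochberg, 0 receptor genes and 0 of 21887 genes passed (percent called 0, smallest adjusted p = 0.264), and 0 of 19529 regions (smallest adjusted p = 0.107). With 4 against 6 lists this Fisher test cannot give a p below 0.00476, however complete the difference. A pass over so many genes needs a great number of them at that value. The 0 calls therefore do not show that Spi1 is unchanged. At an unadjusted p under 0.05, Spi1 was in a higher share of KO-iMOS lists at 2 receptor genes, Clec2d and Siglece, where 8.36% of all genes were, and in a lower share at 0, where 0.886% of all genes were. Over regions the unadjusted count was 4 of 62 at receptors, 6.45%, against 15.4% of all regions. KO-iMOS exceeded WT-iMOS in the share of lists with Spi1 by 0.5 or more at 11 receptor genes against 22.5% of all genes, and lower by at least 0.5 at 1, Clec3a, against 2.12%. Receptor genes were thus no more often higher in KO-iMOS than genes at large, and 3 of the 4 KO-iMOS lists are longer than every WT-iMOS list.

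Clec2d, a ligand that keeps natural killer cells from attacking, had Spi1 over its start in 1 of 6 WT-iMOS lists (T1 replicate 1, percentile 38.6) and 4 of 4 KO-iMOS lists (65.8, 57.7, 71.6 and 29.6; chr6:129180433-129181130; exact Fisher p = 0.0476 unadjusted). Siglece, an inhibitory sialic acid receptor of neutrophils and macrophages, had Spi1 in 1 of 6 WT-iMOS lists at 12.2 and in 4 of 4 KO-iMOS lists at 28.6 and 2.81 (T1) and 92.1 and 92.6 (T2), in a region 5787 bp from the gene and inside Ceacam18 (chr7:43642211-43643095). A second region, inside Siglece and over the start of Ctu1 (chr7:43671663-43672207), had Spi1 in 2 KO-iMOS lists at 52.7 and 9.37. With lists of equal length Clec2d had no Spi1 call in any list, and Siglece had it in 2 of 4 lists from KO-iMOS and 0 of 6 from WT-iMOS. The other genes with a share higher by at least 0.5 were Cd300e, Clec4a4, Clec2g, Clec2m, Clec12b, Clec1b, Clec9a, Clec11a and Clec4g. At Clec4g, a lectin of sinusoidal endothelium, Spi1 was called in 2 of 6 and 4 of 4 lists.

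**Figure D5:**
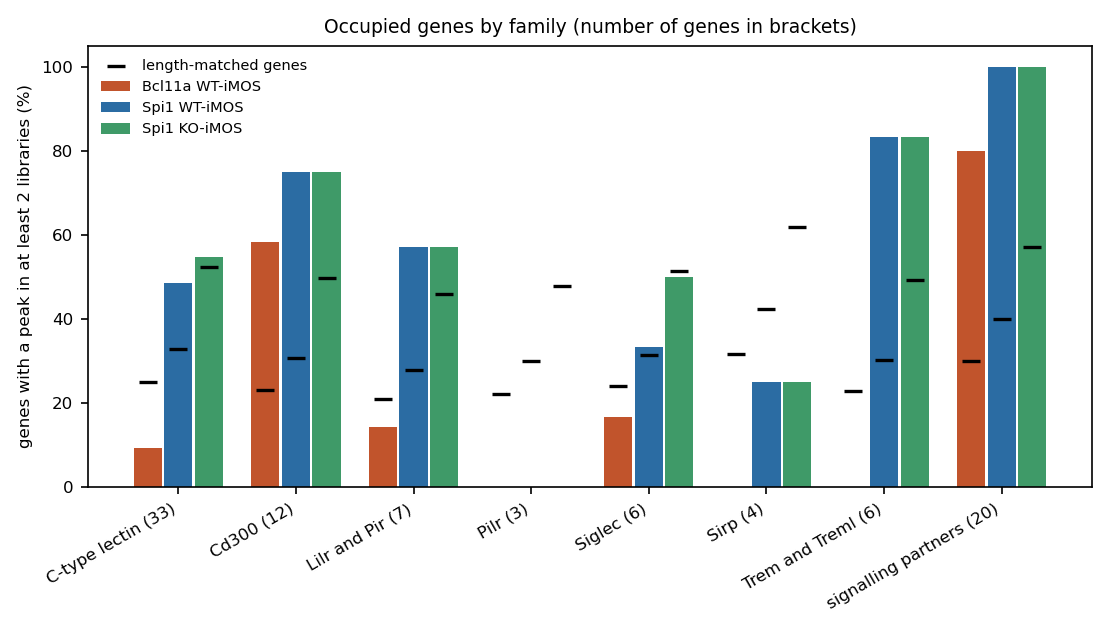
Share of genes with a called peak in at least 2 libraries (vertical axis, %) for the 7 receptor families and for the 20 signalling partners, with the number of genes in brackets; bars are Bcl11a in WT-iMOS (orange, 6 libraries), Spi1 in WT-iMOS (blue, 6) and Spi1 in KO-iMOS (green, 4), and black dashes give the share in length-matched genes. The Cd300 genes and the partners are the groups whose Bcl11a bar lies above its dash, and Pilr has no bar.

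By family, Spi1 was found in at least 2 WT-iMOS lists at 16 of 33 C-type lectins (length-matched genes would give 10.8), 4 of 7 Lilr and Pir genes (1.94), 5 of 6 Trem and Treml genes (1.81), 2 of 6 Siglec (1.88), 1 of 4 Sirp (1.69) and 0 of 3 Pilr genes (0.896). For Bcl11a the counts were 3 (8.18), 1 (1.46), 0 (1.37), 1 (1.43), 0 (1.27) and 0 (0.665). Siglecg, the inhibitory Siglec of B cells, was the Siglec gene with Bcl11a in at least 2 lists, 3 of 6, beside Spi1 in 2 of 6 and 3 of 4; Siglec15, Siglecf and Siglech had Bcl11a in 1 list each. Clec16a, an intracellular protein that shares only the name, had Bcl11a in 2 of 6 lists and Spi1 in 2 of 6 and 3 of 4. No peak in any of the 16 lists was found at 16 of the 71 genes, where 33.4% of all genes had none; in alphabetical order they begin with Cd300ld3, Cd300ld5, Clec14a and Clec2f, and they include Lilrb4a, Siglec1, Treml1 and Clec4e.

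Genes of the proteins that carry the receptors' signals were called for both factors. Of 20 partner genes, 20 had Spi1 in at least 2 WT-iMOS lists and 20 in at least 2 KO-iMOS lists (length-matched genes would give 7.96 and 11.4), and 16 had Bcl11a (5.99). Plcg2, the phospholipase downstream of Syk, Inpp5d (SHIP1), Cd47, the ligand of Sirpa, and Vav1 carried Bcl11a in every list, and Spi1 in 6 of 6 and 4 of 4. None of the 71 receptors had Bcl11a in every list (3.54% of all genes did). The adaptors Tyrobp and Hcst, which are adjacent genes, carried Bcl11a in 2 of 6 lists, with Spi1 in 6 of 6 and 3 of 4, and Fcer1g had 1, 4 and 3. Syk had 4, 6 and 4, and Ptpn6 (SHP-1) 3, 6 and 4. Btk was the partner with an unadjusted p under 0.05, with Bcl11a in 0 and Spi1 in 5 of 6 lists (exact Fisher p = 0.0152, adjusted p = 0.387 over 21887 genes); 0 partners passed the adjustment in any comparison.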

How the data were processed

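The libraries came from a commercial CUT&Tag kit, per the labels' protocols. The submitters' processing notes name MACS2, Bowtie2 and SAMtools and the build mm10, with no version or setting. The authors deposited 1 peak list for each library, called separately. Beside its position, each deposited peak has a score, a fold enrichment ratio, and its p-value and q-value as −log10; these are the authors' values and were used solely for ranking and filtering inside 1 list. All deposited −log10 q values were at least 2.00. The sources used here do not give whether a control library or an artefact filter was used. The lists carry no read counts: list length sets the precision, and intervals cannot be given. No pair of lists shared more than 60 identical intervals.

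Of 131939 peaks, 130097 on assembled chromosomes were used. A gene had a peak when at least 1 bp lay in the gene or the 10 kb beside it (RefSeq genes on GRCm38.p6). Length-matched values are the share of all other genes in the same of 10 locus length classes. Regions were peaks merged at 1 bp and kept with at least 2 libraries. Presence was compared by two-sided Fisher's exact tests, or an exact stratified test for T, adjusted by Benjamini-Hochberg, at a threshold of 0.05; test regions were merged from the compared lists, so their bounds can differ by some bases from those printed. The labels do not say whether replicate numbers pair the samples. Of 18 same-number pairs, 5 correlated above 0.1 (range −0.110 to 0.258), which cannot settle it. Python 3.11.15, numpy 2.4.6, scipy 1.17.1, pandas 2.3.3, Biopython 1.88 and matplotlib 3.10.9 were used, and the tests were checked on simulated data.

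The receptor genes and gene lists were chosen with earlier results of these data known. Genes named are those with either factor in at least 4 of 6 WT-iMOS lists, with a Spi1 share of lists differing by at least 0.5 between genotypes, or with Bcl11a in at least 2 more lists than Spi1, 33 in all; other genes are named as family members or examples. The rule also took the promoters printed, of which Pira2 is not repeated.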

Additional observations from a re-analysis of the deposited data

Results flagged for a closer look

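In WT-iMOS the receptor genes lay on opposite sides of length-matched genes for the 2 factors. The share with a peak less that of length-matched genes was −5.19 percentage points on average for Bcl11a, below 0 in 6 of 6 lists, and 13.8 points for Spi1, above 0 in 6 of 6 lists. It is given here because every list of one target moved one way and every list of the other the opposite way. The difference was not tested. The Bcl11a lists are shorter (2719 to 7382 peaks against 5068 to 12261), and with lists of equal length the means were −4.91 and 8.81 points.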

How the results depend on the processing

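Of 193 alternative values, 175 stayed within 1 SD without a change of sign, or within 1.5 times a count, 18 did not, and 0 reversed. Many of the 175 are counts of calls at 0 in both settings, which have no direction and carry little weight. The number of receptor genes reached in at least 2 libraries (12 for Bcl11a, 37 and 40 for Spi1 in WT-iMOS and KO-iMOS) was 5, 17 and 17 with lists of equal length; with the gene body alone it was 6 for Bcl11a and 24 for Spi1 in WT-iMOS, and with 50 kb on either side 31 and 56. For Bcl11a it was 24 with 1 library as the minimum, 5 with 3, 6 without T1 replicate 3, and 5 without T1 replicates 2 and 3 together, chosen after seeing the data. With each library left out in turn the ranges were 6 to 11, 30 to 37 and 35 to 40 genes, and the excess over length-matched genes ranged from −5.97 to −3.81, 11.5 to 16.1 and 3.04 to 7.22 points. Regions with Bcl11a against Spi1 past the threshold (644, of which 4 at receptors) numbered 652 to 887, and 4 to 7 at receptors, with each library left out, the 7 without Spi1 WT-iMOS T2 replicate 3. With lists of equal length they numbered 530, and 6 at receptors, at a partly different set of genes. They numbered 0, and 0 at receptors, without Bcl11a T1 replicates 2 and 3 (smallest adjusted p of 0.0524), where fewer lists raise the smallest possible p. With the replicate number as a block (replicate block, smallest adjusted p of 0.196) they also numbered 0, and 0 at receptors. The block allows fewer distinct outcomes, and the labels do not say whether the numbers pair the samples. Genes past the threshold stayed at 0 in every comparison with each library left out and under the replicate block. Regions shared by both factors fell from 20 to 11 with peaks of −log10 q of at least 5 and to 2 with lists of equal length. Except where given, causes were not tested. Depth is unknown, so no list shows that a factor is absent.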
